A study of Rattus norvegicus with 18 samples.

Results

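Marker genes of brown fat, white fat or fat cells of both kinds were followed in adrenal glands of rats: Ucp1, Elovl3 and Cidea, which are high in brown fat, and Lpl, Fasn, Adipoq, Plin1, Fabp4, Pparg and Pck1, which fat cells in general use. These 10 members were taken by their names in the array annotation, from 26612 gene names on the array, and 11 probes in 29 spots measured them. Plin1 stands in the annotation under its older symbol, Plin. The glands came from WKY, a normotensive strain, from SHR, the spontaneously hypertensive rat, and from SHRSP, the stroke-prone SHR. All were untreated rats aged 3 or 6 weeks, and there were 3 arrays per strain and age, from what the labels call biological replicates, so 18 arrays in 6 groups. The sources used here do not give the sex of the rats, whether glands were pooled, or whether the fat around the gland was trimmed off.

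Brown fat cells burn fatty acids to make heat, and Ucp1 is the protein of the inner mitochondrial membrane that lets protons leak back and so turns respiration into heat. White fat cells store triglyceride in 1 large droplet and secrete hormones such as adiponectin, the product of Adipoq. The adrenal gland lies in perirenal fat, which in young rodents is largely brown and takes on more white features with age, so transcripts of fat cells around a gland can enter an extract of it. Cortical cells of the gland themselves take up lipoproteins and fatty acids and store cholesterol esters in droplets, so Lpl and Fasn may be less bound to fat cells than Ucp1, Adipoq and Plin1. Which cells of the extract made each transcript was not tested.

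A measured level here is hybridisation to 60-base probes, and the probes of 4 members that lie in protein-coding sequence are shown so that a reader can see what was detected. The Ucp1 probe lies at chr19:26527687-26527746 on the minus strand of rn4, and the Pck1 probe at chr3:164017597-164017656 on the plus strand. The Cidea probe maps between chr18:63888076 and chr18:63895390 and the Fabp4 probe between chr2:93536175 and chr2:93538589, spans of 7315 and 2415 bases, so both probes cross splice junctions and read spliced transcripts. The sequences are those of the array annotation, in lower case, 5′ to 3′.
Ucp1: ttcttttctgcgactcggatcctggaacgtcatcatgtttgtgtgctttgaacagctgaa
Cidea: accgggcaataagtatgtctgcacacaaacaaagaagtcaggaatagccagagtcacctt
Fabp4: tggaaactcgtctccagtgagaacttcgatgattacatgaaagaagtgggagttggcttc
Pck1: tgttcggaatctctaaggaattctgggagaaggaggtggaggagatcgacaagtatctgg
The second Cidea probe, at chr18:63896918-63896975, was the brighter of the pair and represents Cidea below. The pair correlated with r = 0.977 over the 18 arrays. The other probes map to chr1:251355273-251355332 (Elovl3), chr16:22533294-22533353 (Lpl), chr11:79908299-79908358 (Adipoq), chr1:135497463-135497522 (Plin1) and chr4:151617128-151617187 (Pparg). The annotation gave no position for the Fasn probe, and the sources used here do not say which exon or untranslated region lies under the probes not shown.

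RefSeq promoter sequences of GRCr8 were matched by symbol for 7 of the 10 members, 8 windows in all, and the 250 bases before the annotated start are shown for Ucp1, Pck1 and Adipoq, a brown fat gene, a gene of glycerol synthesis and a fat cell hormone gene that changed differently in the results below. Capitals mark 1 searched motif in each, on either strand: TATAAA in Ucp1, TTACGTCA, a cyclic AMP response element, in Pck1, and CCAAT with its reverse complement in Adipoq. The windows are chr19:41721422-41721671 on the minus strand, chr3:182348322-182348571 on the plus strand and chr11:91240170-91240419 on the minus strand.
Ucp1: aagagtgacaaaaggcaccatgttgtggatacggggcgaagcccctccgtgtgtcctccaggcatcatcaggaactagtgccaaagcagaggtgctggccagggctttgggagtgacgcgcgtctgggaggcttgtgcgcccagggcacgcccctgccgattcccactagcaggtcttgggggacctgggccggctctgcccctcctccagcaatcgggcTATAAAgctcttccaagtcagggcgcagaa
Pck1: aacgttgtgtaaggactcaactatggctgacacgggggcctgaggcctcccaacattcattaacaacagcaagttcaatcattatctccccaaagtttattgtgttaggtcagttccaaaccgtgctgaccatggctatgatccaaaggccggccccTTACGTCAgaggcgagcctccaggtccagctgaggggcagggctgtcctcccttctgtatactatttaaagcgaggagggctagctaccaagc
Adipoq: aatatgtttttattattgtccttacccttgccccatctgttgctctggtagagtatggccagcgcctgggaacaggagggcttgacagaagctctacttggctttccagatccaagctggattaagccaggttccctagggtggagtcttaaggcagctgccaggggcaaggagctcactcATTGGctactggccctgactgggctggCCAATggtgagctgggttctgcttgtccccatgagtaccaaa
TTACGTCA starts 93 bases before the start of Pck1 and occurs in 0.75% of 33469 rat promoter windows of this length, and in none of the other members' windows. TATAAA starts 30 bases before the start of Ucp1 and occurs in 12.9% of windows. CCAAT lies at 2 places in the Adipoq window, and 34.0% of all windows hold it. The nuclear receptor hexamer AGGTCA was found in Pck1, and 14.1% of windows hold it. Its direct repeat with 1 base between occurs in 0.0508% of windows and in no window of a member. A match describes the letters only.

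Between 77.8% and 84.8% of spots lay well above background on an array, and all 10 members did on all 18 arrays. Over the 6 groups 8 of 10 members differed in an F test, where 57.1% of all genes did, and Cidea and Plin1 were the exceptions (limma adjusted p = 0.165 and 0.124). Levels are log2 processed signal minus the 75th percentile of the same array, so a level of 0 is the 75th percentile, and a difference is a log2 difference with its standard error from 1 limma model of the 6 groups. Called differences have an adjusted p under 0.05 (Benjamini-Hochberg) over the 20857 gene names tested. All 10 adrenal cortex markers and at least 9 of 10 chromaffin cell markers were well above background on each array. SHR at 6 weeks replicate 1 stood apart in the fat markers, as described below. Liver transcripts stood apart on 3 arrays: the mean level of 8 liver markers was 2.64 on SHR 3 weeks replicate 2, -2.44 on SHR 3 weeks replicate 3 and -2.20 on SHRSP 3 weeks replicate 2, and between -5.48 and -4.55 on the other 15. Albumin (Alb) was at 5.47, 0.50 and 0.83 on those 3 arrays. Liver makes Pck1 and Fasn too, so results of the members are also given without these 3 arrays, which leaves 1 array of SHR at 3 weeks.

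The members varied more between replicate arrays than most genes. The SD within groups, with 12 residual degrees of freedom, was 0.52 in the median over the members and 0.185 over all genes tested. Elovl3 had the lowest, 0.330, at percentile 78.6 of all genes, and Ucp1 the highest, 1.03, at percentile 99.0. Ucp1 and Lpl were each spotted 10 times on every array. The SD between the Ucp1 spots of an array was 0.054 in the median and that of Lpl 0.068, well under the spread between arrays.

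**Figure D1:**
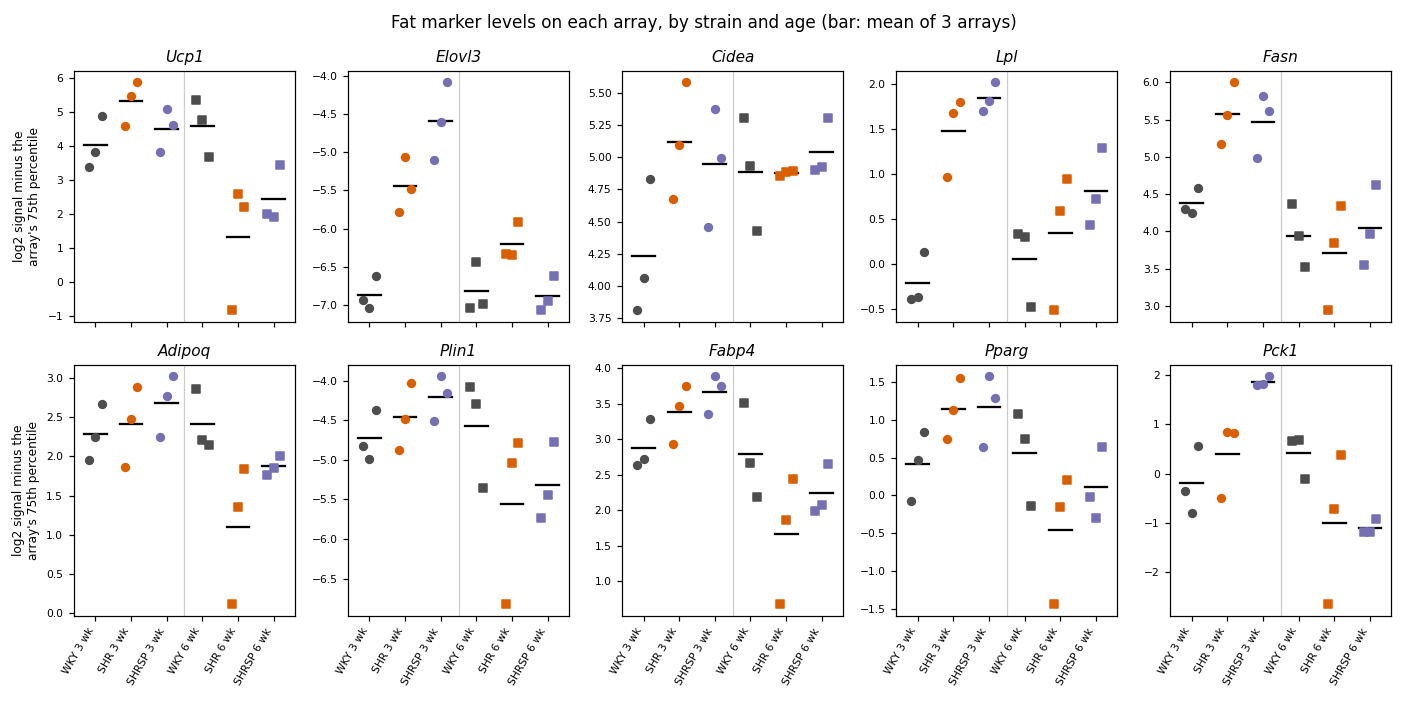
Level of each member (log2 processed signal minus the array's 75th percentile) on the 18 arrays, 3 for each strain and age, with a bar at the group mean. The orange square far below its group in 8 panels (all except Elovl3 and Cidea) is SHR at 6 weeks replicate 1, for example Ucp1 at -0.82.

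The Ucp1 level at 3 weeks was 3.37, 3.82 and 4.87 on the WKY arrays, 4.59, 5.47 and 5.87 in SHR, and 3.81, 5.09 and 4.62 in SHRSP. At 6 weeks it was 5.36, 4.76 and 3.67 in WKY, -0.82, 2.58 and 2.20 in SHR, and 2.0, 1.90 and 3.42 in SHRSP. The SHR and SHRSP arrays at 6 weeks all lay below every WKY array of that age and below every 3-week array of their own strain, and the 3 groups at 3 weeks overlapped. In the processed signal, SHR 6 weeks replicate 1 read 1196 and the other 17 arrays between 8403 and 136259.

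On 11 of 18 arrays all members deviated from their group mean in 1 direction. No such count was made for other sets of genes. All 10 members lay below their group mean on 7 arrays: replicate 1 of each strain at 3 weeks, WKY 6 weeks replicate 3, SHR 6 weeks replicate 1, and SHRSP 6 weeks replicates 1 and 2. All 10 lay above it on WKY 3 weeks replicate 3, SHRSP 3 weeks replicate 3, SHR 6 weeks replicate 3 and SHRSP 6 weeks replicate 3. These arrays share slides in part. Slide 1 held replicate 1 of each strain at 3 weeks and also WKY 6 weeks replicate 1, which had 9 members above. Slide 2 held replicate 1 of SHR and SHRSP at 6 weeks. It also held replicate 2 of WKY and SHR at 3 weeks, with 1 and 6 above. Slide 4 held replicate 3 of each strain at 3 weeks, with 9 or 10 members above, and WKY 6 weeks replicate 3. Glands and slides cannot be fully told apart here. The mean deviation over the members ran from -0.98 on SHR 6 weeks replicate 1 to 0.67 on SHR 6 weeks replicate 3. Each group has only 3 arrays, whose deviations sum to 0, so the arrays of a group are not independent in this measure.

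**Figure D2:**
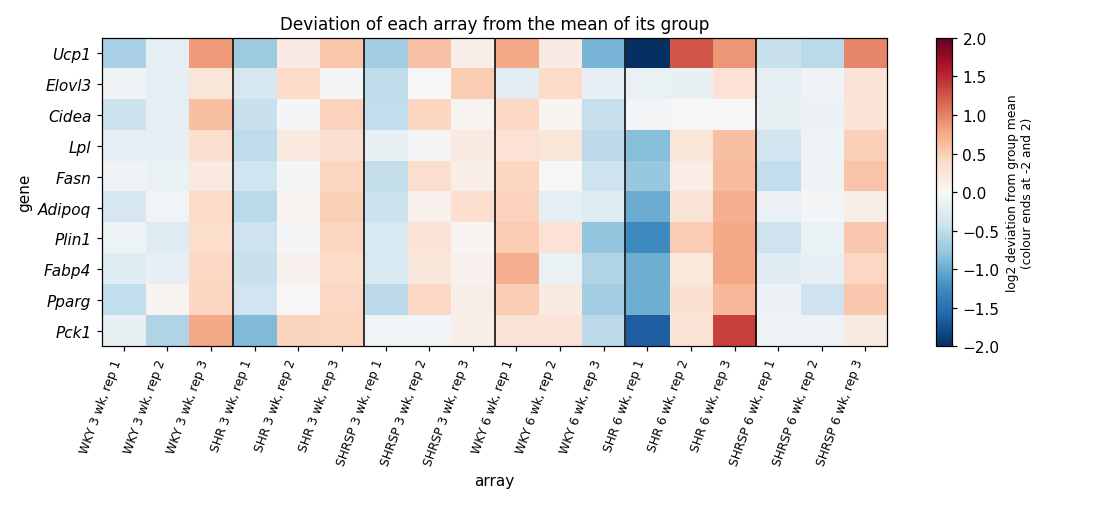
Deviation of each array (columns, 3 replicates for each of the 6 groups) from the mean of its group for the 10 members (rows), on the log2 scale, with red above and blue below the group mean. Columns are mostly of 1 colour, and the darkest column is SHR at 6 weeks replicate 1, where the members deviated by -0.98 on average.

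The deviations from group means correlated over the 18 arrays with a Pearson r from 0.41 to 0.96 in the 45 pairs of members, with a median of 0.87, and with a median of 0.82 without SHR 6 weeks replicate 1. Pairs of other genes were not computed, so whether this is particular to the members was not tested. Deviations over tested genes with no missing value correlated between same-numbered arrays with r from -0.53 to 0.58. The highest was that of SHR and SHRSP 6 weeks replicate 1, both on slide 2. Ucp1 and Plin1, the brown fat uncoupler and the coat protein of the fat cell droplet, gave r = 0.951 and rho = 0.942 (permutation of arrays within groups, p = 0.0003 and 0.0005, 1 of 45 pairs computed), and r = 0.927 without the 2 farthest arrays. Ucp1 and Elovl3, a fatty acid elongase of brown fat, gave r = 0.426 and rho = 0.443 (permutation p = 0.0863 and 0.0823). Elovl3 had the lowest median r with the other members, 0.470. Cidea, a droplet protein, came next with 0.625. Ucp1 and Cidea correlated with r = 0.650 and rho = 0.763 (permutation p = 0.00011 and 7e-05), and with r = 0.936 without SHR 6 weeks replicate 1, the array where Ucp1 was lowest and Cidea, at 4.85, lay beside the 4.89 and 4.89 of its group. With slide means taken out, the median r over the pairs was 0.82 and the lowest 0.08, that of Ucp1 and Elovl3. With the other members Elovl3 then gave 0.17 (Pparg) to 0.41 (Lpl).

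At 3 weeks, the brown fat gene Elovl3 and the general fat cell genes Lpl and Fasn were higher in both hypertensive strains than in WKY. The brown fat genes Ucp1 and Cidea and the general fat cell genes Adipoq, Plin1, Fabp4 and Pparg were called in neither. In SHR against WKY, 3 of 10 members were called, all higher, where 18.2% of all genes were called and 9.02% were called higher. In SHRSP against WKY, 4 of 10 were called, all higher, where 26.2% of all genes were called and 14.8% higher. The median difference over the members was 0.81 in SHR and 0.77 in SHRSP, against -0.01 and 0.09 over all genes. Both comparisons share the 3 WKY arrays. The arrays did not overlap in 3 of 10 members in SHR and 5 in SHRSP, where 41.8% and 48.6% of all genes did not overlap. In extracts of a whole organ, fewer cells of a type and less transcript per cell cannot be told apart.

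Lpl, the lipase that frees fatty acids from circulating triglyceride, was at -0.38, -0.37 and 0.13 in WKY, 0.96, 1.67 and 1.80 in SHR, and 1.70, 1.81 and 2.02 in SHRSP at 3 weeks. All 6 arrays of the hypertensive strains lay above all 3 of WKY. The difference was 1.68 ± 0.35 in SHR (3.21-fold, limma adjusted p = 0.00397) and 2.05 ± 0.35 in SHRSP (4.14-fold, adjusted p = 0.00068). Elovl3, which lengthens saturated fatty acids, was at -6.93, -7.04 and -6.62 in WKY, -5.78, -5.06 and -5.48 in SHR, and -5.10, -4.61 and -4.09 in SHRSP. Again the WKY arrays were the 3 lowest, with differences of 1.42 ± 0.25 in SHR (adjusted p = 0.0013) and 2.26 ± 0.25 in SHRSP (4.80-fold, adjusted p = 2.32e-05). The Elovl3 signal was dim, and with normexp background correction these differences were 0.50 and 0.99, still called.

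Fasn, the fatty acid synthase, was at 4.31, 4.25 and 4.58 in WKY, 5.17, 5.56 and 6.00 in SHR, and 4.99, 5.82 and 5.61 in SHRSP at 3 weeks. Its differences were 1.2 ± 0.36 in SHR (adjusted p = 0.0324) and 1.1 ± 0.36 in SHRSP (adjusted p = 0.0371), with no overlap between WKY and either strain. The SHRSP call was lost with slide as a block (0.91, adjusted p = 0.0612) and without the filter on dim probes (adjusted p = 0.0531). Pck1, which makes the glycerol backbone of triglyceride in fat cells and glucose in liver, was at -0.34, -0.80 and 0.56 in WKY, -0.49, 0.84 and 0.83 in SHR, and 1.80, 1.82 and 1.98 in SHRSP. The 3 SHRSP arrays were the highest, and Pck1 was called in SHRSP against WKY (2.06 ± 0.59, adjusted p = 0.0179) and not in SHR (0.59 ± 0.59, adjusted p = 0.566). The difference between SHRSP and SHR was 1.47 ± 0.59 (95% interval 0.21 to 2.73, adjusted p = 0.156). No member was called between SHRSP and SHR at 3 weeks by limma, where 7.93% of all genes were called. At an unadjusted p under 0.05 there were 2 members, Elovl3 and Pck1. At least 7.93% of all genes reached that threshold, since every called gene does. The SHRSP and SHR arrays did not overlap in 1 of 10 members, where 31.7% of all genes did not. For Adipoq the 95% interval was -0.69 to 0.93 in SHR against WKY and -0.42 to 1.21 in SHRSP, so a rise of the size seen for Lpl lay outside both.

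Lpl and Elovl3 in SHRSP stayed called when any 1 array was left out, while Fasn in SHR was not called without any one of WKY replicates 1, 2 or 3 or SHR replicates 2 or 3 (difference 0.99 to 1.30, adjusted p 0.0552 to 0.137), Fasn in SHRSP without any one of WKY replicates 1, 2 or 3 or SHRSP replicates 2 or 3 (0.92 to 1.2, 0.0577 to 0.135), and Pck1 in SHRSP without WKY replicate 1 or 2 or SHRSP replicate 3 (1.76 to 2.0, 0.0547 to 0.0798). Without the 3 arrays with raised liver transcripts, Lpl and Elovl3 stayed called in SHRSP (2.06 and 2.27), Fasn and Pck1 in SHRSP were not (0.92 and 2.09, adjusted p = 0.15 and 0.0522), and SHR against WKY gave 1.17 for Lpl, 1.08 for Elovl3 and 0.79 for Fasn, none called with 1 SHR array left (adjusted p = 0.323, 0.159 and 0.59).

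At 6 weeks, the brown fat gene Ucp1 and the fat cell gene Adipoq were lower in SHR than in WKY. These were 2 of 10 members called, where 29.2% of all genes were called and 13.0% were called lower. The median difference over the members was -1.0, against 0.09 over all genes. In SHRSP against WKY no member was called by limma, where 23.9% of all genes were called, and in SHRSP against SHR none, where 15.0% were. At an unadjusted p under 0.05 there were 3 members in SHRSP against WKY, Ucp1, Lpl and Pck1, and 1 in SHRSP against SHR, Elovl3. Every called gene also has an unadjusted p under 0.05, so at least 23.9% and 15.0% of all genes reached that threshold. The arrays did not overlap in 3 of 10 members between SHR and WKY, in 4 between SHRSP and WKY and in 2 between SHRSP and SHR, where 36.6%, 33.7% and 29.9% of all genes did not overlap.

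Ucp1 was lower by 3.28 ± 0.78 on the log2 scale in SHR (difference -3.28, 9.69-fold lower, adjusted p = 0.0058), and the call was lost when only the 2 groups compared were fitted (adjusted p = 0.0776). In SHRSP the difference from WKY was -2.16 ± 0.78 (4.46-fold, 95% interval -3.82 to -0.49, adjusted p = 0.0591), with no overlap of the arrays. Without SHR 6 weeks replicate 1, the Ucp1 difference was -2.21 ± 0.61 in SHR (adjusted p = 0.0182), and in SHRSP, with no array of its own left out, Ucp1 (adjusted p = 0.0107) and Pck1 (adjusted p = 0.0146) were then called.

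Adipoq, the fat cell hormone gene, was at 2.86, 2.21 and 2.15 in WKY, 0.12, 1.35 and 1.83 in SHR, and 1.76, 1.85 and 2.01 in SHRSP at 6 weeks. All 6 arrays of the hypertensive strains lay below all 3 of WKY. The difference was -1.31 ± 0.38 in SHR (2.47-fold lower, adjusted p = 0.0187), and it was not called without SHR replicate 1 (-0.81, adjusted p = 0.0769) or WKY replicate 1 (-1.08, adjusted p = 0.0813), or with only the groups compared (adjusted p = 0.122). In SHRSP the Adipoq difference was -0.53 ± 0.38 (adjusted p = 0.37). Lpl and Cidea, called in neither strain, had differences of 0.29 and -0.01 in SHR and of 0.76 and 0.16 in SHRSP. Fabp4, the fatty acid carrier of the fat cell, Pparg, its master transcription factor, Plin1 and Pck1 had differences from -1.41 to -0.98 in SHR and from -1.51 to -0.46 in SHRSP, none called.

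With both hypertensive strains averaged, 6 arrays against the 3 of WKY, 4 members were higher at 3 weeks, where 26.1% of all genes were called and 13.9% higher: Lpl, Elovl3, Fasn and Cidea. At 6 weeks, 3 members were lower, where 29.0% of all genes were called and 14.0% lower: Ucp1 (-2.72 ± 0.67, adjusted p = 0.0073), Pck1 (-1.46 ± 0.51, adjusted p = 0.0443) and Adipoq (-0.92 ± 0.33, adjusted p = 0.0497). The arrays did not overlap in 3 members at 3 weeks and 2 at 6 weeks, where 28.6% and 19.9% of all genes did not. Among comparisons of strains and ages, Cidea was called only here (0.79 ± 0.26 at 3 weeks, adjusted p = 0.0378), with overlapping arrays, and not without any one of WKY replicates 1 or 2 or replicates 2 or 3 of either hypertensive strain (0.58 to 0.80, adjusted p 0.058 to 0.203). Adipoq at 6 weeks kept its call in 3 of 18 runs that left out 1 array, Pck1 in 6 of 18 and Ucp1 in all 18. Without the 3 arrays with raised liver transcripts, the averaged contrast at 3 weeks was 0.46 for Cidea and 0.86 for Fasn, neither called. Those arrays are all of 3 weeks, so the 6-week differences were unchanged (-0.92 for Adipoq and -1.46 for Pck1). These 2 were not called either, since the variance estimate and the adjustment over all genes changed. The calls of Cidea, Adipoq and Pck1 were also lost with slide as a block (adjusted p = 0.0633, 0.085 and 0.0593) and without the filter on dim probes (adjusted p = 0.054, 0.0701 and 0.0626).

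**Figure D3:**
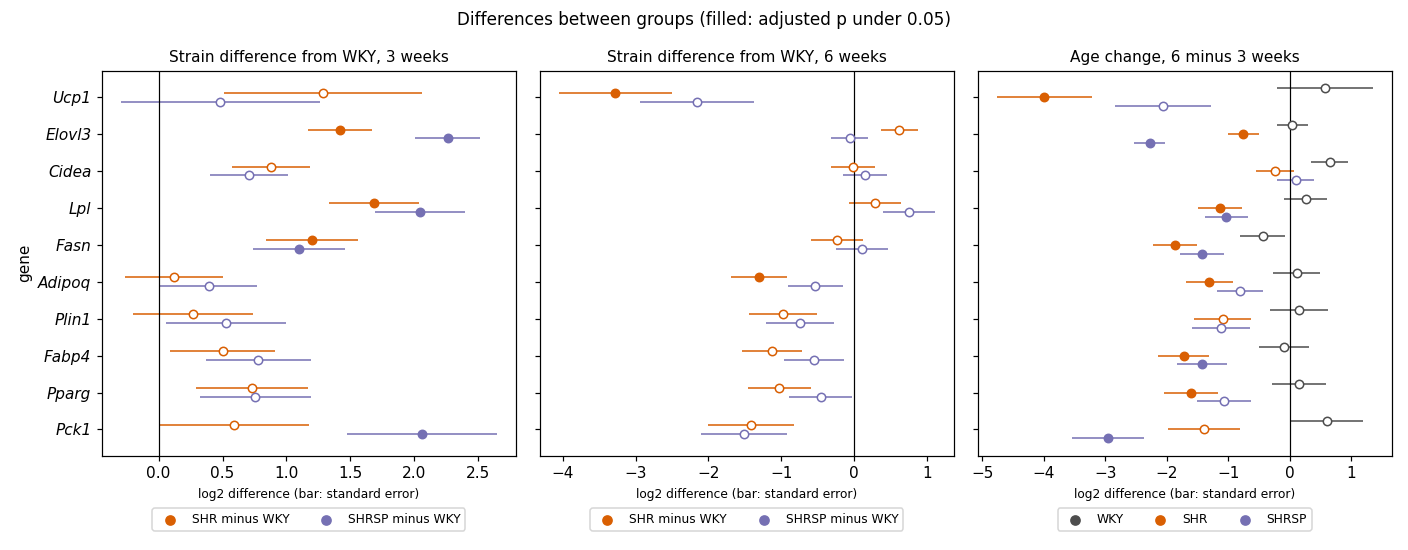
Log2 differences of the 10 members with standard errors: hypertensive strains minus WKY at 3 weeks (left) and at 6 weeks (middle), and 6 minus 3 weeks in each strain (right), with filled points where the limma adjusted p is under 0.05. The filled points lie to the right of 0 at 3 weeks and to the left of 0 in the other panels, and WKY has none in the right panel.

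Between 3 and 6 weeks, fat markers fell in both hypertensive strains, and none was called in WKY. In SHR, 7 of 10 members fell, where 29.3% of all genes were called and 14.1% were called lower. In SHRSP, 5 of 10 fell, where 29.0% of all genes were called and 18.5% were called lower. In WKY none was called by limma, where 12.3% of all genes were called. In WKY 1 member, Cidea, had an unadjusted p under 0.05, with a difference of 0.65 (adjusted p = 0.19). At least 12.3% of all genes reached that threshold, since every called gene does. The median over the members was -1.35 in SHR, -1.27 in SHRSP and 0.15 in WKY, against 0.08, -0.09 and 0.02 over all genes.

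Among the brown fat genes, Ucp1 differed by -3.99 ± 0.78 in SHR (15.9-fold lower, adjusted p = 0.00178), and by -2.92 ± 0.61 without SHR 6 weeks replicate 1. In SHRSP the Ucp1 difference was -2.06 ± 0.78 (adjusted p = 0.0607) and in WKY 0.57 ± 0.78 (95% interval -1.09 to 2.24). Elovl3 differed by -2.28 ± 0.25 in SHRSP (4.86-fold lower, adjusted p = 1.7e-05) and by -0.75 ± 0.25 in SHR (adjusted p = 0.0376). The SHR difference was -0.30 with normexp background correction and not called (adjusted p = 0.13), nor was it called without the filter on dim probes (adjusted p = 0.053) or with only the groups compared (adjusted p = 0.0625). At 6 weeks Elovl3 was at -7.03, -6.44 and -6.98 in WKY, -6.33, -6.34 and -5.91 in SHR, and -7.06, -6.95 and -6.62 in SHRSP, so SHRSP had come down among the WKY arrays and SHR lay above both. Cidea differed by -0.24 ± 0.30 in SHR and 0.10 ± 0.30 in SHRSP, with 95% intervals of -0.89 to 0.41 and -0.55 to 0.75, which do not reach the size of the Ucp1 difference.

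Among the genes of lipid supply, Fasn differed by -1.87 ± 0.36 in SHR and -1.43 ± 0.36 in SHRSP (adjusted p = 0.00169 and 0.00878), and Lpl by -1.14 ± 0.35 and -1.03 ± 0.35 (adjusted p = 0.0264 and 0.0412). At 6 weeks Fasn was at 4.36, 3.94 and 3.52 in WKY, 2.94, 3.84 and 4.34 in SHR, and 3.55, 3.97 and 4.62 in SHRSP, and the 3 groups overlapped. Pck1 fell most in SHRSP, from 1.80, 1.82 and 1.98 to -1.17, -1.19 and -0.92, with no overlap (difference -2.96 ± 0.59, 7.78-fold lower, adjusted p = 0.00179). In SHR Pck1 ended at -2.64, -0.72 and 0.37, a spread that overlapped the 3-week arrays (-1.39 ± 0.59, adjusted p = 0.0879).

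Among the fat cell genes, Fabp4 differed by -1.73 ± 0.41 in SHR and -1.43 ± 0.41 in SHRSP, both called, and Pparg by -1.61 ± 0.44 and -1.07 ± 0.44, called in SHR (adjusted p = 0.0133 against 0.0827). Adipoq differed by -1.31 ± 0.38 in SHR, called, and by -0.81 ± 0.38 in SHRSP. Plin1, which coats the droplet of fat cells, differed by -1.09 ± 0.47 and -1.11 ± 0.47 and was called in neither (adjusted p = 0.0939 and 0.0922). In SHRSP the 3-week and 6-week arrays did not overlap in 9 of 10 members, all except Cidea, in SHR in 7, and in WKY in none, where 43.6%, 42.8% and 32.5% of all genes did not overlap.

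Several of these age calls rested on single arrays or on the samples fitted. With only the groups compared, Fabp4, Pparg, Lpl and Adipoq were not called in SHR (adjusted p = 0.0536, 0.0586, 0.108 and 0.109), and without the filter on dim probes Lpl was not in SHRSP (adjusted p = 0.0584). Without SHR 6 weeks replicate 1, Adipoq, Lpl and Elovl3 were not called in SHR (differences -0.82, -0.71 and -0.68), while in SHRSP Adipoq, Plin1, Pparg and Ucp1 were then called. Leaving out other single arrays ended calls too. In SHR, 3 weeks replicate 2 or 3 ended those of Adipoq (-1.28 and -1.07), Lpl and Elovl3. SHR 6 weeks replicate 2 ended that of Elovl3, and SHR 3 weeks replicate 3 that of Pparg (-1.40). In SHRSP, 3 weeks replicate 2 or 3 or 6 weeks replicate 1 or 2 ended those of Fabp4 (-1.38 to -1.30) and Lpl. SHRSP 3 weeks replicate 1 also ended that of Lpl (-1.10 to -0.84 over these SHRSP arrays). Lpl in SHRSP was not called without WKY 3 weeks replicate 1 or 2 either. WKY is not in that difference, which stayed at -1.03. Without the 3 arrays with raised liver transcripts, Elovl3 and Pck1 stayed called in SHRSP (-2.28 and -2.98) and the calls of Fasn, Fabp4 and Lpl did not (-1.25, -1.31 and -1.04). In SHR none of the 7 stayed called with 1 array left at 3 weeks: Ucp1 was at -3.27 ± 1.17 (adjusted p = 0.121) and Fasn at -1.46 ± 0.52 (adjusted p = 0.118).

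The age changes themselves differed between strains for Ucp1, Elovl3 and Pck1, and those of Elovl3 and Pck1 in SHRSP stayed called without the 3 arrays with raised liver transcripts. For Ucp1, the change in SHR minus that in WKY was -4.56 ± 1.1 (adjusted p = 0.0285), 1 of 10 members called in this comparison, where 5.81% of all genes were called and 2.41% lower. For SHRSP minus WKY, 2 of 10 were called, Elovl3 (-2.32 ± 0.36, adjusted p = 0.0013) and Pck1 (-3.57 ± 0.83, adjusted p = 0.015), where 10.1% of all genes were called and 6.36% lower. For SHRSP minus SHR, Elovl3 was called (-1.53 ± 0.36, adjusted p = 0.0134), where 11.9% of all genes were called and 7.48% lower. Averaged over both hypertensive strains minus WKY, the same 3 genes were called, where 5.03% of all genes were called and 3.08% lower. Without the 3 arrays with raised liver transcripts, the calls of Ucp1 in SHR minus WKY (-3.84, adjusted p = 0.294) and of all 3 genes in the averaged contrast were lost (Ucp1 -3.09, Elovl3 -1.40 and Pck1 -2.36, adjusted p = 0.236, 0.0965 and 0.219). For Fabp4, Pparg, Adipoq, Lpl, Fasn and Plin1 the change in SHR minus that in WKY lay between -1.76 and -1.24, with adjusted p from 0.112 to 0.319.

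Each member was also set against Adipoq on the same array, as a log2 level minus the log2 level of Adipoq, to describe which members moved apart from a gene of fat cells. Differences between groups of this ratio can be compared, though they can come from either gene, and its size cannot, since probes differ in brightness. The SD within groups fell from 1.03 for the Ucp1 level to 0.640 for its ratio, from 0.542 to 0.195 for Fabp4, and from 0.464 to 0.246 for Lpl. It rose for Elovl3, from 0.330 to 0.452. An exact 2-sided permutation test was run for 9 members in 3 comparisons, 27 in all, and no p is adjusted. With 6 arrays against 3 there are 84 splits and the smallest p found was 0.0119, and with ages permuted within the 2 hypertensive strains there are 400 splits and the smallest was 0.005.

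The Ucp1 ratio at 6 weeks was 2.19 ± 0.58 in WKY, 0.22 ± 1.09 in SHR and 0.57 ± 0.74 in SHRSP (mean ± SD, n = 3), and at 3 weeks 1.73 ± 0.42, 2.90 ± 0.15 and 1.82 ± 0.43. The hypertensive strains lay below WKY at 6 weeks without overlap (difference -1.80, exact permutation p = 0.0238) and below their own 3-week arrays without overlap (-1.97, exact permutation p = 0.005). Ucp1 was thus lower by more than Adipoq was. The Lpl ratio was higher in the hypertensive strains than in WKY at both ages, by 1.61 at 3 weeks and 1.44 at 6 weeks (exact permutation p = 0.0119 for each), and its change with age in those strains was -0.02 (exact permutation p = 0.865). The Fasn ratio differed by 0.89 and 0.86 (exact permutation p = 0.0119 for each), and with age it changed by -0.59 in those strains (exact permutation p = 0.01). At 6 weeks the Fasn level itself differed from WKY by -0.06 and the Lpl level by 0.52, neither called, and Adipoq by -0.92. The higher Fasn ratio at that age thus came from the lower Adipoq, as did part of the higher Lpl ratio. The Cidea ratio rose with age in the hypertensive strains by 0.99 (exact permutation p = 0.005), as Adipoq fell and Cidea was not called. At 6 weeks the Cidea ratio was higher than in WKY by 0.99 without overlap (exact permutation p = 0.0357), opposite in direction to that of Ucp1. Among the general fat cell genes, the Fabp4 ratio was higher than in WKY at 3 weeks by 0.39 (exact permutation p = 0.0119) and changed by -0.52 with age in the hypertensive strains (exact permutation p = 0.005), both without overlap, and differed by 0.08 at 6 weeks (exact permutation p = 0.595). The Pparg ratio was higher at 3 weeks by 0.49 without overlap (exact permutation p = 0.0357), and its other differences were 0.18 and -0.28 (exact permutation p = 0.476 and 0.08). The ratios of Plin1 differed by -0.05 to 0.14 in the 3 comparisons (exact permutation p from 0.321 to 0.833). The Elovl3 ratio was higher at 3 weeks by 1.59 (exact permutation p = 0.0119) and the Pck1 ratio changed by -1.12 with age (exact permutation p = 0.045). At 6 weeks the Elovl3 ratio differed from WKY by 1.20, with overlapping arrays (exact permutation p = 0.0952).

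**Figure D4:**
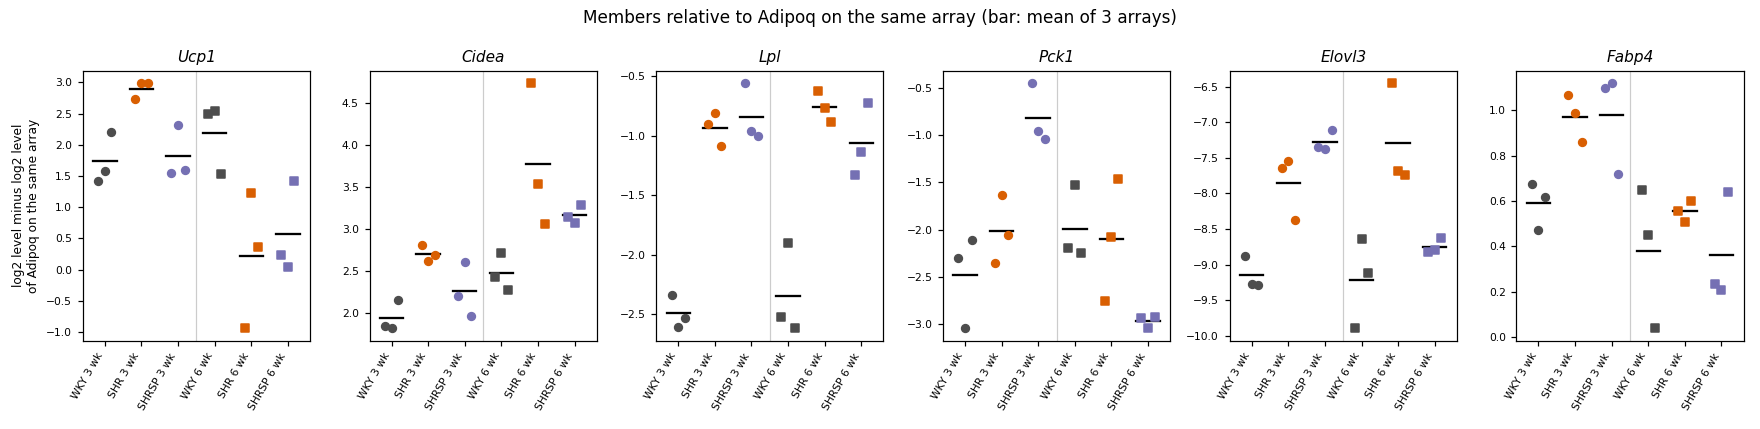
Log2 level of 6 members minus that of Adipoq on the same array, by strain and age, with points for the 18 arrays and a bar at each group mean of 3. For Ucp1 the hypertensive strains at 6 weeks lie below their own 3-week arrays and below WKY at 6 weeks, and for Lpl the WKY arrays lie below the hypertensive strains at both ages.

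Longer lists of fat genes, which include the members, were counted in the same model. Of 24 brown fat and fat oxidation genes 19 were tested. Of these, 13 fell and 1 rose from 3 to 6 weeks in SHR, with a median difference of -1.18 against 0.08 over all genes, of which 14.1% were called lower. In SHRSP 9 fell and 1 rose, with a median of -0.76 against -0.09 over all genes, of which 18.5% were called lower. In WKY 1 rose and none fell, where 12.3% of all genes were called. Ppargc1a, the coactivator that drives mitochondrial and heat-making genes, differed by -2.74 ± 0.42 in SHR. Pdk4, which spares glucose while fat is burnt, differed by -2.82 ± 0.56 in SHRSP. The gene that rose in all 3 strains was Pank1, a kinase of coenzyme A synthesis, by 0.87 ± 0.10 in SHR, 0.79 ± 0.10 in SHRSP and 0.97 ± 0.10 in WKY. Fabp3, a fatty acid carrier of muscle and brown fat, differed by -4.95 ± 0.63 in SHR.

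Of 28 white and general fat cell genes 26 were tested. With age 17 fell and none rose in SHR, 16 fell and none rose in SHRSP, and in WKY 1 rose and none fell. The medians were -1.14, -1.05 and 0.03, against 0.08, -0.09 and 0.02 over all genes, of which 14.1% in SHR and 18.5% in SHRSP were called lower and 12.3% in WKY were called. Gpihbp1, which holds Lpl on the capillary wall, differed by -2.23 ± 0.37 in SHR. Lipe, the hormone-sensitive lipase, differed by -1.18 ± 0.17 in SHRSP. Cd36, a fatty acid transporter, was the gene that rose in WKY (0.52 ± 0.15) and differed by -0.98 ± 0.15 in SHR and -0.79 ± 0.15 in SHRSP. At 6 weeks Cd36 was lower than in WKY by 1.55 ± 0.15 in SHR and 1.24 ± 0.15 in SHRSP (differences -1.55 and -1.24). At 3 weeks 4 of the 26 were higher in SHR than in WKY and 5 in SHRSP, and none was lower, where 9.02% and 14.8% of all genes were called higher. Itih4, made in liver, was 1 of the 4 (4.70 ± 1.30), in the group that holds 2 of the arrays with raised liver transcripts, and their part in the result was not tested.

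Of 18 fatty acid synthesis genes 16 were tested. At 3 weeks 7 were higher and 1 lower in SHR than in WKY, with a median of 0.78 against -0.01 over all genes, of which 9.02% were called higher. In SHRSP 9 were higher and 1 lower, with a median of 1.05 against 0.09 over all genes, of which 14.8% were called higher. Elovl6, the elongase that follows Fasn in the pathway, differed by 1.68 ± 0.20 and 1.79 ± 0.20, and Acly, which supplies acetyl-CoA, by 0.86 ± 0.17 and 1.04 ± 0.17. Mlxipl, a transcription factor of this pathway, differed by 0.95 ± 0.24 and 1.38 ± 0.24. The gene that was lower was Me1, a malic enzyme that supplies NADPH (-0.87 ± 0.18 and -1.07 ± 0.18). At 6 weeks 3 were higher and 2 lower in SHR, where 29.2% of all genes were called, and 2 higher and 2 lower in SHRSP, where 23.9% were. The medians were -0.12 and 0.04, against 0.09 and -0.01 over all genes. Elovl6 was still higher (1.21 ± 0.20 and 0.61 ± 0.20) and Me1 lower (-2.02 ± 0.18 and -2.24 ± 0.18). With age 8 fell and 2 rose in SHR and 11 fell and none rose in SHRSP, where 14.1% and 18.5% of all genes were called lower. The lists were counted only on all 18 arrays. The part of the 3 arrays with raised liver transcripts in these list results was not tested.

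The droplet genes that steroid cells use gave mixed directions. Of 12 tested, 3 were higher and 2 lower in SHR than in WKY at 3 weeks, and 2 higher and 3 lower in SHRSP, where 18.2% and 26.2% of all genes were called. Plin2, the droplet coat of steroid and liver cells, differed by -1.42 ± 0.13 in SHRSP at 3 weeks, in the opposite direction to Lpl and Fasn. Scarb1, the receptor that takes up cholesterol esters from HDL, differed by 1.11 ± 0.17 there. With age 3 of the 12 fell and 1 rose in SHR, with a median of -0.09, and 4 fell and 1 rose in SHRSP, with a median of -0.22, where 29.3% and 29.0% of all genes were called. Lipe and Pnpla2, which are also in the white and general fat cell list, were among the falls in both strains.

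Marker lists of other cell types were counted in the same way. The mean level of 10 endothelial markers ran from -1.01 to -0.65 over the 18 arrays, a range of 0.354, where that of the brown fat list ran from -2.69 to -0.11, a range of 2.58. All 9 arrays at 6 weeks lay below all 9 at 3 weeks in the endothelial mean, WKY included. The part of these lists in the fat marker results was not tested. At 3 weeks, 3 of 10 chromaffin markers were higher and 1 lower in SHR than in WKY, and 6 higher and 1 lower in SHRSP, 3 and 4 of 10 cortex markers were higher, and 5 of 10 macrophage markers were higher in SHRSP and none in SHR, where 18.2% of all genes were called in SHR and 26.2% in SHRSP. At 6 weeks, 6 chromaffin markers were higher and 1 lower in SHR and 5 higher in SHRSP, 4 cortex markers were higher in each, and 2 macrophage markers were higher in SHR, where 29.2% and 23.9% of all genes were called. With age in WKY, 1 cortex marker rose and 4 fell and 3 chromaffin markers fell, where 12.3% of all genes were called. From 3 to 6 weeks in SHR, where 29.3% of all genes were called and 14.1% lower, none of 10 endothelial markers rose and 2 fell, 2 of 10 macrophage markers rose and 1 fell, and 1 of 10 adrenal cortex markers rose and 1 fell. In SHRSP, where 29.0% of all genes were called and 18.5% lower, 1 endothelial marker rose and 5 fell, 2 macrophage markers rose and 2 fell, and 1 cortex marker rose and 5 fell. Kidney and skeletal muscle markers had 2 rises and 2 falls, and 1 rise and 1 fall, in SHR, and 2 and 2, and 1 and 0, in SHRSP. Chromaffin cell markers had 2 falls of 10 in SHR and 1 in SHRSP.

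**Figure D5:**
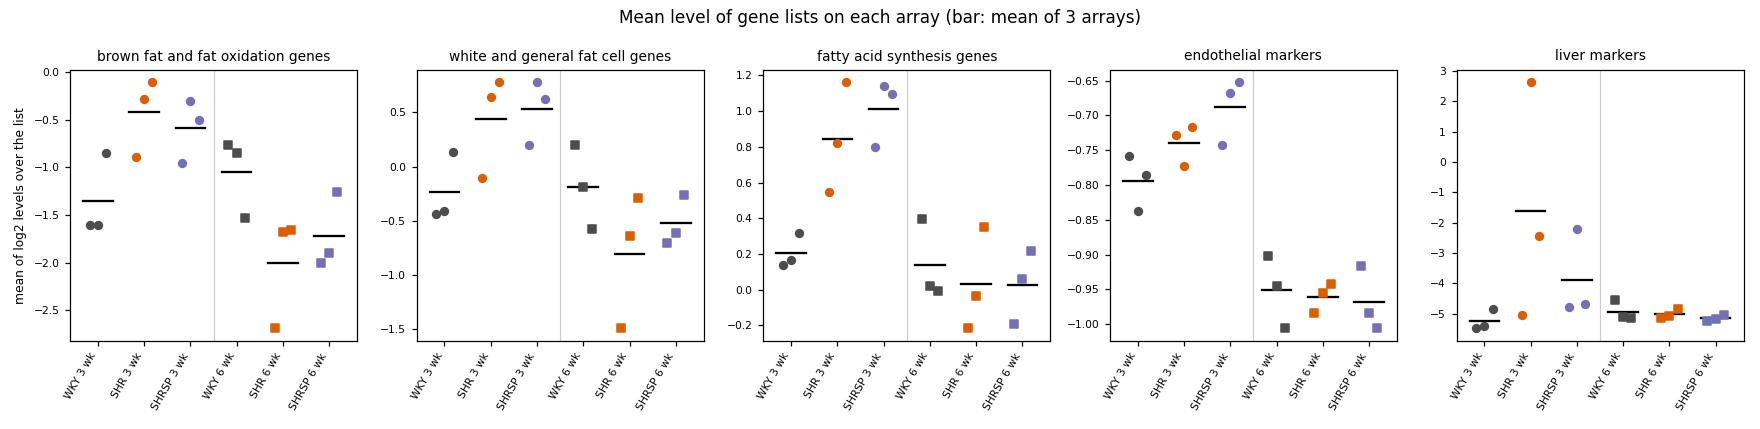
Mean log2 level (relative to the array's 75th percentile) over the tested genes of 5 lists on each of the 18 arrays, by strain and age, with a bar at each group mean of 3. The 3 fat lists are lowest on SHR 6 weeks replicate 1 (-2.69 for brown fat genes), the endothelial list spans 0.354 in all, and the liver list is high on 1 array of SHR at 3 weeks (2.64).

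The genes whose levels were most like a member's over the 18 arrays were found among 13564 named genes well above background on all arrays, as a description, since these arrays share the group differences given above. Genes most like Ucp1 included Cib2 (r = 0.957) and Calr4 (0.953). Those most like Adipoq included Acvr1c, an activin receptor of fat cells (0.940), and Tmem182 (0.929). Pparg was most like Aqp7, the glycerol channel of fat cells (0.968), Cav1, the coat protein of caveolae (0.965), and Dgat2, which makes triglyceride (0.965). Pck1 was most like Rbp7, a retinol carrier (0.943), Cd302 (0.939) and Sort1 (0.925). Lpl was most like Anxa3 (0.954), Kcne2 (0.936) and Ankrd5 (0.929), none of which is in the fat lists. Fasn was most like Psat1, an enzyme of serine synthesis (0.977), Tlcd3b (0.975) and Fabp5, a fatty acid carrier (0.973).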

How the data were processed

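Total RNA of adrenal glands was labelled with Cy3 from an oligo-dT primer and read on 18 one-colour Agilent arrays, per the labels' protocols. Per the file headers and the submitters' processing notes, the authors read the spots with Agilent Feature Extraction 10.5.1.1. The deposited values are processed signal intensities on a linear scale, detrended in space and not scaled between arrays, per the file headers, which name rn4 for the probe positions. The series matrix repeats these deposited intensities (largest difference 0).

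From these, log2 of the processed signal minus the array's 75th percentile was computed, after control spots and spots flagged as outliers were left out. Higher and lower are therefore relative to that percentile. Spots of a probe were averaged, and a gene was represented by its brightest probe of 30367. A name was kept if every array of some group showed it well above background, which left 20857, of which 180 lacked a value on an array. Limma 3.58.1 (R 4.3.3) fitted a model of 6 group means with moderated variances (12 residual and 2.12 prior degrees of freedom), with 9 pairwise comparisons, 3 differences of age changes, and 3 contrasts of both hypertensive strains against WKY. P-values were adjusted (Benjamini-Hochberg) over all genes of a comparison, and the fit was checked on simulated data. The number of arrays limits the precision.

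The members and lists were chosen with earlier results of these data known. All 10 members are named, with up to 4 genes of each fat list that had the smallest adjusted p in a pairwise comparison, and the 3 genes most correlated with each of 6 members, of which 1 gene is not reported here. The ratios to Adipoq and the run without 3 arrays were chosen after seeing the data. Alternatives were quantile normalization, normexp background correction (offset 50), the deposited table, other filters and probe rules, slide, scan day or replicate number as a block, only the groups compared, and leaving out each array. There were 5 slides and 3 scan days. Within slides, SHR minus WKY at 3 weeks was 1.35 to 2.04 for Lpl and 1.14 to 1.97 for Elovl3 on 3 slides, and SHR minus WKY at 6 weeks was -2.37 for Ucp1 on the 1 slide that holds both. From 3 to 6 weeks, Ucp1 within slides changed in WKY by 1.99 on slide 1 and -1.20 on slide 4. In SHR it changed by -6.29 on slide 2, which held SHR 6 weeks replicate 1, and in SHRSP by -3.19 on slide 3. No other slide held both ages of either hypertensive strain, so age and slide cannot be fully told apart.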

Additional observations from a re-analysis of the deposited data

Results flagged for a closer look

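The change from 3 to 6 weeks differed between strains in a test of that difference for 3 members. For Ucp1 it was lower in SHR than in WKY (-4.56 ± 1.1), and it was -3.60 for both hypertensive strains averaged against WKY. For Elovl3 the difference was -2.32 for SHRSP against WKY, -1.53 for SHRSP against SHR, and -1.56 for both hypertensive strains against WKY. For Pck1 it was -3.57 for SHRSP against WKY and -2.78 for both hypertensive strains against WKY. Limma's adjusted p was under 0.05 in each. The differences of Elovl3 for SHRSP against either strain and of Pck1 for SHRSP against WKY stayed called in all 18 runs that left out 1 array. Those of Ucp1 for SHR against WKY lost the call in 6 of 18 such runs (-4.48 to -4.18 there, adjusted p 0.0538 to 0.0713), and those for both hypertensive strains in 11 of 18 for Ucp1 and 13 of 18 for Pck1. Without the 3 arrays with raised liver transcripts, 4 of the 7 were not called: Ucp1 for SHR against WKY (-3.84, adjusted p = 0.294), and Ucp1, Elovl3 and Pck1 for both hypertensive strains against WKY (adjusted p = 0.236, 0.0965 and 0.219). Without the filter on dim probes, the contrasts of both hypertensive strains were not called for Ucp1 (adjusted p = 0.069) and Pck1 (adjusted p = 0.0627).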

How the results depend on the processing

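Of 90 pairs of a member and a pairwise comparison 21 were called, of 30 differences of age change 4, and of 30 contrasts of both hypertensive strains 10. Of all genes, 7.93% to 29.3% were called in a pairwise comparison. The shares were 5.81% to 11.9% in a difference of age change and 5.03% to 29.0% in a contrast of both hypertensive strains. Leaving out 1 array gave 16 to 27, 3 to 6 and 4 to 12, with 6 to 9 members in place of 8 in the F test over the 6 groups (57.1% of all genes called), a median SD within groups of 0.425 to 0.544 in place of 0.522, and 37 to 44 of 45 correlated pairs in place of 38. Scan day as a block gave 35, 8 and 16 calls, and no filter on dim probes 5 in the contrasts of both hypertensive strains. Calls over all genes moved with the scan day block too. They were 7651 in place of 6083 in SHR against WKY at 6 weeks, and 5834 in place of 6102 with age in SHR. Without the 3 arrays with raised liver transcripts, chosen after seeing the data and leaving 1 array of SHR at 3 weeks, which is assumed to vary like the other groups, the counts were 6 pairwise, 3 in the contrasts of both hypertensive strains and 5 in the F test. No called difference changed sign under any alternative run. Of the 35 called, quantile normalization, the mean of all probes, the stricter filter, the scan day block and the deposited table ended 0, normexp 1, the slide block 4 and no filter on dim probes 8. Of the 21 pairwise calls, fitting only the groups compared ended 7: Ucp1 and Adipoq in SHR against WKY at 6 weeks, and Elovl3, Lpl, Adipoq, Fabp4 and Pparg with age in SHR. Replicate numbers did not pair the samples: deviations of same-numbered arrays correlated with r from -0.53 to 0.58, over 0.1 in 13 of 45 pairs. With the replicate number as a block, 27 pairwise calls were made in place of 21, and none of the 35 was lost. Calls over all genes rose with that block too, for example to 6270 from 6083 in SHR against WKY at 6 weeks. Dim signals limit Elovl3 and Plin1, whose differences depend on the background correction.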
